A study of Homo sapiens with 10 samples.

Results

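The comparison described here set the 5 libraries whose titles end in B against the 5 whose titles end in A, within the same 5 cell lines. All 10 libraries of the series took part. All came from LS180, an established human colorectal cancer line, grown in DMEM with 10% FBS and given no drug. Each line carried CRISPR interference, in which an inactive Cas9 is led by a guide RNA to a promoter and lowers transcription. The lines NTC1 and NTC2 had non-targeting guides, and the lines sg1, sg2 and sg3 had guides against RNASE1, a secreted ribonuclease. The labels do not say what the letters stand for or whether the 2 libraries of a line came from separate cultures. Culture, extraction, library preparation and sequencing therefore cannot be told apart as sources of a difference, and the p-values below rest on a scatter among libraries that may be partly or wholly technical. The labels name neither the repressor fused to Cas9 nor how many clones made up a line.

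Colonic epithelium is renewed by Wnt-dependent stem cells, whose daughters become absorptive cells or secretory cells according to Notch signalling between neighbours. Goblet cells, the main secretory type, release the gel-forming mucin MUC2 with its partner FCGBP. Paneth cells, which belong mainly to the small intestine, release defensins and the phospholipase PLA2G2A. LS180 is known as a mucin-producing line.

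Libraries held 39026605 to 45050991 expected counts, and 15450 to 15830 genes per library reached 10 counts. Markers of colorectal epithelium were abundant: EPCAM averaged 946 CPM (counts scaled by the effective size of each library) in A and 897 CPM in B, and KRT8 3281 and 2540 CPM. For markers of other cell types the ranges of A and B overlapped in sum, and defining genes were at 0. The 10 fibroblast genes summed to 4.11 to 5.06 CPM in A and 4.05 to 5.59 CPM in B, and COL1A2 and POSTN were at 0 in every library. The 10 endothelial genes summed to 4.26 to 5.91 and 4.66 to 6.43 CPM (KDR, TIE1, CLDN5 and EMCN at 0), and the 12 leukocyte genes to 43.6 to 46.7 and 36.9 to 46.6 CPM (PTPRC, MS4A1 and NKG7 at 0), most of it LYZ and CD68, which epithelial lines also express. The 11 genes taken as markers of embryonic kidney lines summed to 83.9 to 89.6 and 82.0 to 91.7 CPM (LHX1, NEFL and SALL1 at 0), with HOXA9 at 64.0 and 65.3 CPM on average.

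The letters separated the libraries. On the first principal component, which carried 29.3% of the variance, the A libraries lay between -13.48 and -8.83 and the B libraries between 5.96 and 12.71. Among the B libraries, sg1 lay nearest to A. Over 9527 genes at 10 CPM or more, the slope of a line's B-minus-A differences on the mean of the other 4 lines was 1.153 in NTC1, 0.996 in NTC2, 0.92 in sg3, 0.839 in sg2 and 0.564 in sg1. The slope was thus smallest in sg1. Where leaving out a line changed a call between the letters given here for a gene, that is said beside its value.

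Each gene was tested with edgeR's quasi-likelihood test with the line as a block, and a gene was called at an adjusted p under 0.05. Of 15462 genes tested, 2456 (15.9%) were higher in B and 2512 (16.2%) were lower. Without sg1 the counts were 2530 and 2550. Scaling by library totals instead of the TMM factors gave 2910 higher and 1914 lower, so the split between directions depends on the scaling. Among the 9527 genes at 10 CPM or more, 2007 (21.1%) were higher and 2255 (23.7%) lower. Most changes were small. Of the 4968 called genes, 3708 (74.6%) had a log2 fold change under 0.25 in size, with a median size of 0.174. Changes of 1.5-fold or more were found for 153 genes (0.99%) higher in B and 90 (0.582%) lower. Fitted among genes at 10 CPM or more they numbered 10 and 10, with DESeq2 61 and 41, and without NTC1 88 were higher. All 5 B libraries lay on one side of all 5 A libraries for 1493 genes called higher (9.66%) and 1492 called lower (9.65%). The direction was the same in all 5 lines for 4350 called genes (87.6%), and for 5630 of all 15462 genes tested. The calls rest on the same 5 line differences, so agreement among called genes is partly built in.

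**Figure D1:**
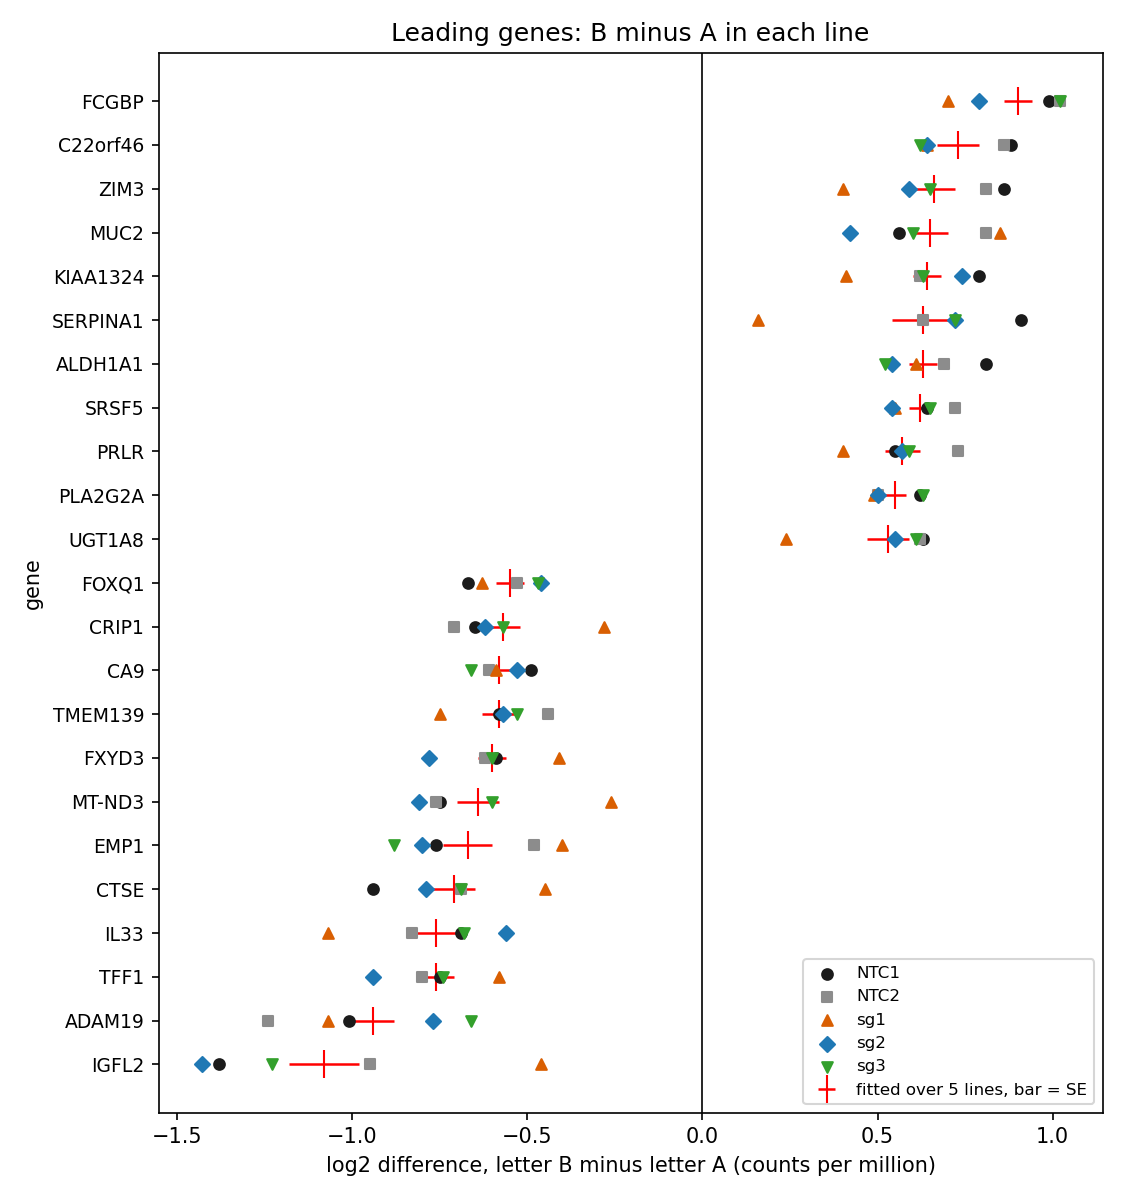
B-minus-A log2 differences (x axis, log2 of CPM) of the leading genes (y axis), with 1 symbol per line and, in red, the fitted value with its SE. All symbols lie on their gene's side of 0, which the rule that chose these genes required. The sg1 symbol is the nearest to 0 for genes such as SERPINA1 (0.16), UGT1A8 (0.24) and IGFL2 (-0.46).

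Genes of the mucus layer were among the 12 leading increases. Leading genes in both directions were chosen for 1 direction in all 5 lines and no overlap between letters. For them these 2 traits were therefore fixed in advance. FCGBP (chr19:39863323-39934626, minus strand, GRCh38), a protein of the mucus gel, stood at 115, 118, 109, 114 and 108 CPM in the A libraries of NTC1, NTC2, sg1, sg2 and sg3, and at 230, 239, 177, 197 and 218 CPM in the B libraries in that order. The groups did not overlap. Its mean rose from 113 ± 4.25 to 212 ± 25.0 CPM (SD, n = 5), a 1.87-fold change with a log2 value of 0.90 (SE 0.04, adjusted p = 5.51e-08, edgeR). MUC2 (chr11:1074875-1110511, plus strand), the main secreted mucin of the colon, went from 82.6, 85.2, 61.4, 73.2 and 77.2 CPM in A to 121, 149, 111, 97.8 and 117 CPM in B. Every B library lay above every A library, and the fitted change was 1.56-fold (log2 0.65, SE 0.05, adjusted p = 1.19e-06). As in every bulk comparison given here, more cells that make a transcript and more transcript per cell cannot be told apart.

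The list of secreted mucus and goblet products held 21 tested genes, of which 9 were higher and 3 lower (15.9% and 16.2% of all genes tested) and 9 were not called, with a median log2 change of 0.22 against -0.001 over all genes tested. Besides FCGBP and MUC2, ZG16, a lectin of the mucus layer, rose by 0.46 (SE 0.12, adjusted p = 0.00705), and TFF3, the intestinal trefoil peptide, by 0.22 (SE 0.04, adjusted p = 0.000934). CLCA1, a secreted goblet protein, rose by 1.62 (SE 0.41, adjusted p = 0.00726), with overlap, at only 0.19 CPM in A and 0.559 CPM in B on average. Members did not move together as a block. TFF1, the trefoil peptide typical of stomach, was among the 12 leading decreases, from 36.8, 39.4, 37.8, 37.1 and 41.0 CPM to 21.8, 22.7, 25.4, 19.3 and 24.5 CPM. All B libraries lay below all A libraries, and the log2 change was -0.76 (SE 0.05, adjusted p = 1.85e-07). REG4, a secreted lectin, also fell (log2 -0.17, SE 0.03, adjusted p = 0.0017). MUC5AC, the gastric gel-forming mucin, was not called (log2 0.19, SE 0.09, adjusted p = 0.124, but 0.0338 without sg2), and neither was AGR2, the disulfide isomerase needed for mucin folding, at 582 ± 24.3 and 587 ± 44.6 CPM. Of 6 transmembrane mucins tested, MUC13 was higher (log2 0.10, SE 0.03, adjusted p = 0.0125, but 0.0531 without NTC1 and 0.0715 without sg3), and MUC17 was lower (-0.38, SE 0.08, adjusted p = 0.00244).

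**Figure D2:**
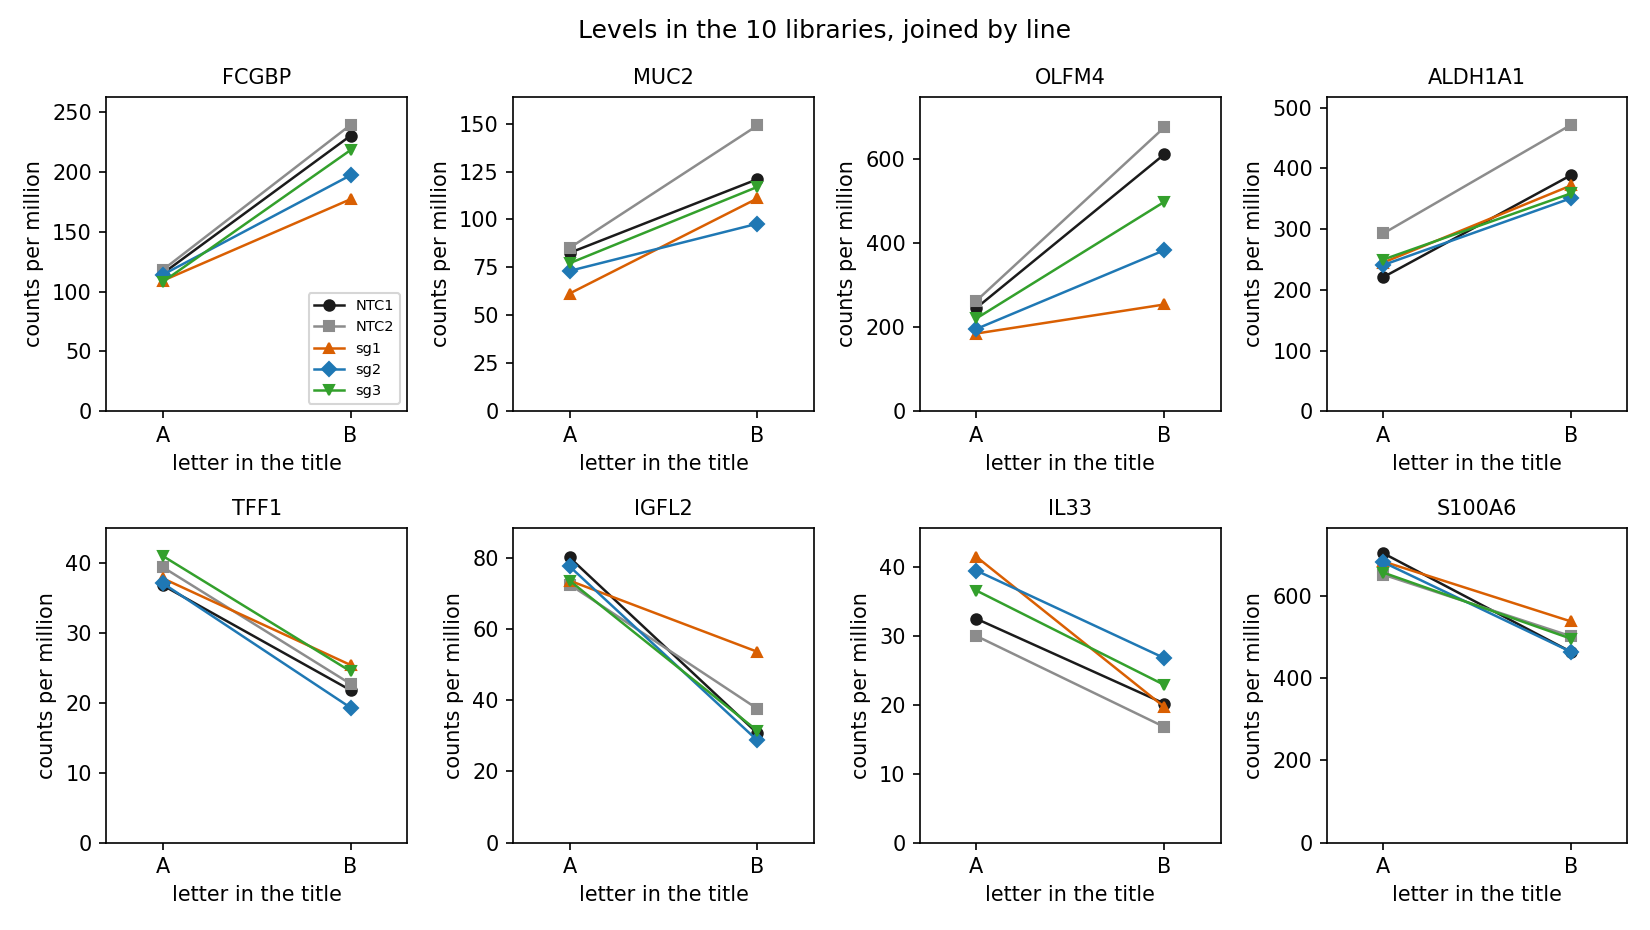
Levels in CPM (y axes, from 0) in the A and B library of each line, joined by a line segment, for 8 genes. All segments of FCGBP, MUC2, OLFM4 and ALDH1A1 rise and all segments of TFF1, IGFL2, IL33 and S100A6 fall; the OLFM4 value of sg1 in B (254 CPM) lies within the range of A.

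Regulators of the secretory fate came next. Of 25 genes in the list of secretory regulators and Notch components, 11 were higher and 3 lower, against 15.9% and 16.2% of all genes tested and 21.1% and 23.7% of those at 10 CPM or more, with a median of 0.09. ATOH1, the transcription factor that commits cells to the secretory lineage, was at 21.4, 23.4, 20.9, 20.3 and 21.2 CPM in A and at 31.0, 32.3, 22.9, 28.8 and 30.5 CPM in B. The sg1 library of B (22.9 CPM) fell below the highest A library (23.4 CPM), so the groups overlapped, and the log2 change was 0.44 (SE 0.05, adjusted p = 3.91e-05). GFI1, a repressor that acts after ATOH1, rose by 0.38 (SE 0.13, adjusted p = 0.0311), a call that was lost without NTC1, NTC2, sg2 or sg3 (adjusted p = 0.0663 to 0.109). JAG2, a Notch ligand, rose by 0.50 (SE 0.05, adjusted p = 7.78e-06). NOTCH2, a receptor, fell (-0.10, SE 0.03, adjusted p = 0.0125, but 0.0602 without sg2), and HES1, the classical target of active Notch, was not called (0.02, SE 0.04, adjusted p = 0.689). OLFM4 (chr13:53028759-53052057, plus strand), a secreted glycoprotein of crypt-base cells, stood at 246, 263, 185, 196 and 221 CPM in A and at 611, 675, 254, 383 and 498 CPM in B. The increase was 2.09-fold (log2 1.06, SE 0.09, adjusted p = 2.89e-06), between 0.46 in sg1 and 1.36 in NTC2, and 1.21 with sg1 left out.

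Of 26 stem cell and Wnt target genes tested, 15 were higher and 3 lower, with a median of 0.12. Over all genes tested, 15.9% were higher and 16.2% lower, and among those at 10 CPM or more 21.1% and 23.7%. The BMP co-receptor RGMB (log2 0.51, SE 0.03, adjusted p = 2.5e-07), the ERBB regulator LRIG1 (0.40, SE 0.03, adjusted p = 1.48e-06) and the matricellular protein SMOC2 (0.35, SE 0.04, adjusted p = 1.02e-05) led the increases, each without overlap between the letters. LGR5, the stem cell receptor for R-spondins, was at 71.7, 73.8, 67.3, 71.0 and 69.7 CPM in A and at 82.5, 84.7, 84.6, 73.8 and 81.9 CPM in B. The sg2 library of B equalled the highest A library in 3 digits, and the log2 change was 0.20 (SE 0.04, adjusted p = 0.000567). The Wnt feedback gene AXIN2 moved little (0.08, SE 0.03, adjusted p = 0.0364, and 0.0602 to 0.162 without NTC1, NTC2, sg2 or sg3), RNF43 was not called (-0.02, SE 0.03), and ASCL2, a stem cell transcription factor, was not called (-0.02, SE 0.03). DKK1, a secreted Wnt antagonist, moved the other way, from 6.95, 7.1, 9.86, 8.9 and 8.87 CPM to 3.07, 3.6, 5.85, 4.22 and 3.9 CPM without overlap (log2 -1.03, SE 0.08, adjusted p = 1.59e-06). With a correction for transcript length, under which 14.6% of all genes tested were higher and 14.7% lower, 11 members of this list were higher and 4 lower.

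Some antimicrobial products of Paneth cells also differed, with the defensins chosen after their values were seen. The defensin DEFA6 was at 0.83, 1.64, 0.727, 1.14 and 1.49 CPM in A and 4.25, 5.43, 2.73, 3.5 and 3.54 CPM in B, and DEFA5 averaged 1.24 ± 0.31 and 3.31 ± 1.09 CPM. No B library overlapped A for either, and the folds were 3.36 (log2 1.75, SE 0.15, adjusted p = 3.23e-06) and 2.62 (log2 1.39, SE 0.15, adjusted p = 1.32e-05). PLA2G2A, the secreted phospholipase, was at 196, 229, 183, 179 and 210 CPM in A and at 300, 323, 256, 252 and 326 CPM in B (log2 0.55, SE 0.03, adjusted p = 9.71e-08). LYZ, another Paneth cell product, was not called (log2 -0.11, SE 0.05, adjusted p = 0.141, but 0.0154 without sg3). Other secreted products did not share the increase. PRSS3 went from 83.7 to 66.2 CPM on average without overlap (log2 -0.34, SE 0.05, and -0.41 to -0.31 with a line left out). PRSS1 differed by 0.14 (SE 0.09) and REG1A, at 0.577 CPM in A, by 0.59 (SE 0.41).

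Metabolic and regulatory genes were also among the leading increases. ALDH1A1, which makes retinoic acid, was at 221, 293, 245, 241 and 250 CPM in A and at 389, 472, 372, 351 and 359 CPM in B, without overlap (log2 0.63, SE 0.04, adjusted p = 1.29e-07). SRSF5, an SR splicing factor, lay at 64.2 to 72.0 CPM in A and at 102 to 109 CPM in B (log2 0.62, SE 0.03, adjusted p = 8.01e-08). KIAA1324 rose by 0.64, the prolactin receptor PRLR by 0.57, the protease inhibitor SERPINA1 by 0.63 and C22orf46 by 0.73, all without overlap and with adjusted p between 4.23e-07 and 9.09e-05. ZIM3, a KRAB zinc finger gene, was at 11.5 to 17.6 CPM in A and at 20.1 to 27.8 CPM in B (log2 0.66, SE 0.06, adjusted p = 3.74e-06). The KRAB domain of ZIM3 is used in some CRISPR interference repressors, and reads of a transgene and of the native gene cannot be told apart in these counts. UGT1A8, a glucuronosyltransferase of the gut, rose by 0.53 (SE 0.06, adjusted p = 1.65e-05), least in sg1. Of 8 UGT1A genes tested, a family assembled after the values were seen, 5 were higher and none lower with a median of 0.33. Over all genes tested, 15.9% were higher and 16.2% lower. These genes share their last exons, so the division of reads among them is uncertain; UGT1A1, the most abundant, rose by 0.18 (SE 0.03, adjusted p = 0.000729).

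The 12 leading decreases included secreted, membrane, nuclear and mitochondrial gene products. IGFL2 (chr19:46143106-46161299, plus strand), a secreted protein of the IGF-like family, fell from 80.1, 72.5, 73.6, 77.6 and 73.6 CPM to 30.7, 37.6, 53.6, 28.7 and 31.4 CPM. The sg1 library stayed highest in B but below every A library, and the log2 change was -1.08 (SE 0.10, adjusted p = 5.04e-06). ADAM19, a membrane metalloprotease, fell from 51.0, 36.4, 45, 43.1 and 42.5 CPM to 25.3, 15.4, 21.4, 25.2 and 26.9 CPM (log2 -0.94, SE 0.06, adjusted p = 4.23e-07). IL33, a nuclear cytokine released by damaged epithelium, was at 32.5, 30, 41.5, 39.5 and 36.6 CPM in A and at 20.2, 16.8, 19.7, 26.8 and 22.9 CPM in B (log2 -0.76, SE 0.06, adjusted p = 1.19e-06). None of these 3 genes overlapped between the letters, which the rule for leading genes required. The aspartic protease CTSE fell by 0.71, the membrane protein EMP1 by 0.67, the ion pump regulator FXYD3 by 0.60, TMEM139 by 0.58, the LIM protein CRIP1 by 0.57 and the forkhead factor FOXQ1 by 0.55 on the log2 scale, with adjusted p between 4.23e-07 and 7.75e-06. CXCL8, the neutrophil chemokine, was at 6.51 ± 0.293 CPM in A and 3.5 ± 0.278 CPM in B (log2 -0.90, SE 0.09, adjusted p = 7.78e-06).

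To see whether leading genes shared promoter letters, the 250 bases before and 50 after the annotated start in RefSeq (GRCh38.p14) were searched on both strands for 6 motifs. The AP-1 motif TGANTCA, bound by JUN and FOS proteins, is shown because JUN itself was higher in B. It was at 36.4, 32.4, 31.2, 33 and 31.5 CPM in A and at 46.3, 45.4, 44.3, 40.0 and 45.3 CPM in B (log2 0.43, SE 0.04, adjusted p = 5.64e-06, edgeR). JUN was not typical of its list. Of 40 immediate early and MAPK feedback genes tested, 5 were higher and 9 lower (median -0.038), against 21.1% and 23.7% of all genes at 10 CPM or more. DUSP6 (-0.36), DUSP4 (-0.23) and CCN1 (-0.38) were among the lower. AP-1 activity was not tested. Of 18 leading genes searched, the motif occurred in MUC2 and PRLR, which were higher, and in CA9 and EMP1, which were lower. For the 3 of these genes with a single annotated start in the table, the stretches read as follows, 5′ to 3′ on the gene's strand with the motif in capitals.

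MUC2 (plus strand, chr11:1074693-1074759): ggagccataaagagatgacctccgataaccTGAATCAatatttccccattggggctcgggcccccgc
CA9 (plus strand, chr9:35673821-35673887): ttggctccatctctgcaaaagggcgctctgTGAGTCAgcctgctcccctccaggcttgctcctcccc
EMP1 (plus strand, chr12:13196521-13196587): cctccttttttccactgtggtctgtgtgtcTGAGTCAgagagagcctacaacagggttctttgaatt
EMP1 (plus strand, chr12:13196648-13196714): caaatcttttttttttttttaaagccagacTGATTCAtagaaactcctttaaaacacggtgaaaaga

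The match begins 151 bases before the start in MUC2, 77 before in CA9, and 175 and 48 before in EMP1. The search then covered all called genes, of any type, at 10 CPM or more with no overlap between letters and 1 direction in the 5 lines. The AP-1 motif was in 4.47% of 1073 promoters higher in B and in 5.35% of 1121 lower in B. It was in 4.04% of 7600 promoters of tested genes at that level and in 7.76% of all 27305 promoters. The TCF/LEF motif CTTTGAT was in 1.68%, 1.16%, 1.24% and 2.64% of the same sets in that order. The forkhead motif TGTTTAC was in 2.52%, 1.52%, 2.28% and 3.41%, and the TEAD motif GGAATG in 9.6%, 11.2%, 10.3% and 14%. The TATA motif TATAAA was in 4.85%, 6.51%, 4.78% and 12%, and CCAAT in 35.4%, 36.2%, 37.6% and 35.7%. AP-1 reads the same on both strands, and no motif contains another. A match describes letters only and says nothing of binding.

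Epithelial identity genes went in both directions. Of 26 tested, 9 were higher and 9 lower, with a median of 0.02 (21.1% and 23.7% of all genes at 10 CPM or more). The simple keratins KRT8, KRT18 and KRT19 were lower. KRT19 went from 432, 408, 428, 419 and 416 CPM to 312, 320, 342, 308 and 327 CPM without overlap (log2 -0.39, SE 0.03, adjusted p = 6.44e-07). KRT18 fell from 1750 ± 42.4 to 1351 ± 96.3 CPM (-0.38, SE 0.04, adjusted p = 8.05e-06) and KRT8 from 3281 ± 70.9 to 2540 ± 280 CPM (-0.38, SE 0.04, adjusted p = 2.76e-05). KRT20, the keratin of differentiated colonic cells, was higher (0.42, SE 0.10, adjusted p = 0.0042) with overlapping groups. The transcription factor CDX1 was lower (-0.09, SE 0.03, adjusted p = 0.0264) with overlapping groups. Its relative CDX2 (0.17, SE 0.03, adjusted p = 0.000423) and the microvillus protein VIL1 (0.16, SE 0.03, adjusted p = 0.000404) were higher, while the cadherin CDH17 (-0.14, SE 0.03, adjusted p = 0.0037) and the surface antigen GPA33 (-0.21, SE 0.04, adjusted p = 0.000669) were lower. CDH1 and EPCAM were not called (log2 0.01, SE 0.03, and -0.08, SE 0.03), but EPCAM was called lower without sg1 (adjusted p = 0.024, edgeR) or without NTC2 (adjusted p = 0.0383).

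Over the whole keratin family, assembled by symbol after the values were seen, 10 of 18 tested genes were lower and 1 higher (16.2% and 15.9% of all genes tested), with a median of -0.38, and 8 were lower with the length correction. KRT17, a keratin of stressed and regenerating epithelium, was at 18.5, 16.8, 17.1, 16.8 and 14.1 CPM in A and at 7.65, 9.01, 15.6, 6.9 and 8.29 CPM in B. The sg1 pair differed least, the groups overlapped through it, and the log2 change was -0.85 (SE 0.12, adjusted p = 0.000152), or -1.06 without sg1. Of the S100 calcium-binding proteins, also gathered by symbol, 8 of 12 tested were lower and none higher, with a median of -0.34. S100A6 was at 704, 652, 684, 682 and 657 CPM in A and at 464, 502, 538, 464 and 496 CPM in B (log2 -0.46, SE 0.04, adjusted p = 1.19e-06), and S100A10, a partner of annexin A2, fell by 0.50 (SE 0.05, adjusted p = 7.13e-06). Annexins were lower for 5 of 11 and higher for 1. The surface glycoprotein CEACAM6 fell from 117 ± 8.13 to 85.4 ± 12.8 CPM (-0.47, SE 0.07, adjusted p = 0.000172). In the list of cell junctions and keratins, 16 of 38 genes were higher and 13 lower. The lower ones included KRT80 (-0.46, SE 0.05, adjusted p = 1.27e-05).

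**Figure D3:**
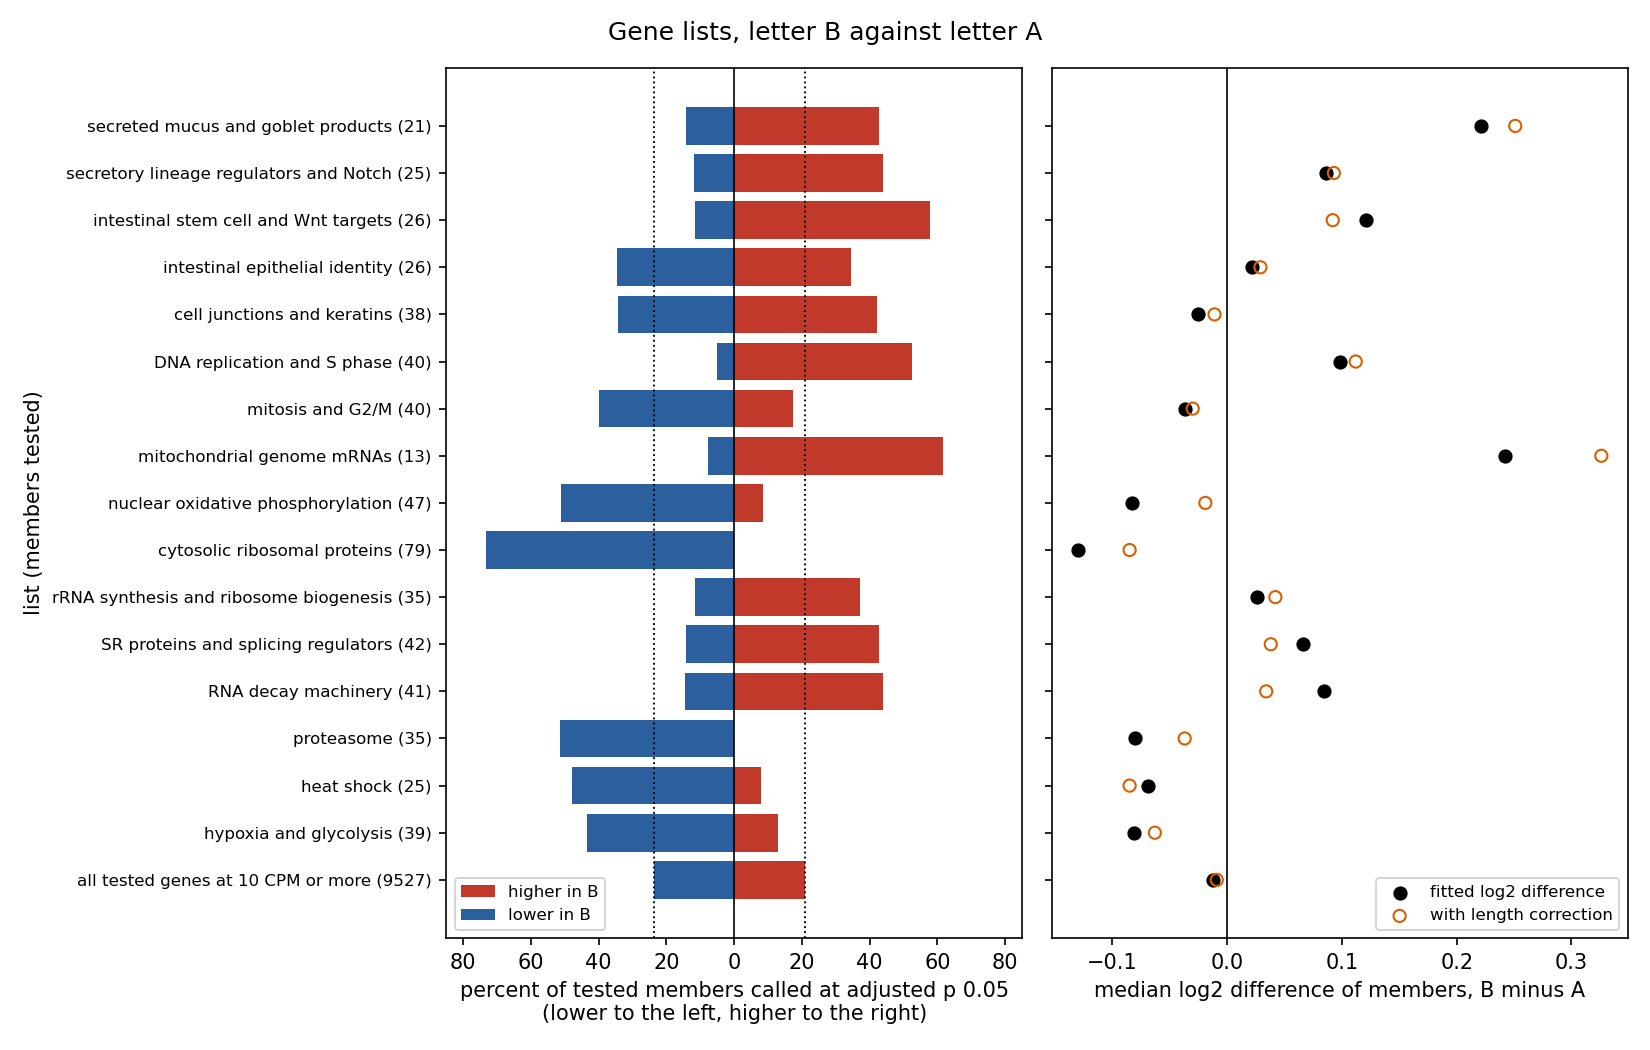
Left, the percent of each list's tested members (number in parentheses) called higher (right, red) or lower (left, blue) in B, with dotted lines at the shares of all genes at 10 CPM or more (21.1% and 23.7%). Right, the median log2 difference of the same members as fitted (filled) and with the length correction (open): the mitochondrial genome and goblet lists lie farthest to the right and ribosomal proteins farthest to the left.

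Genes of the cell cycle differed between the lists of both phases. Both lists are read against 21.1% higher and 23.7% lower among all genes at 10 CPM or more. Among 40 genes of DNA replication and S phase, 21 were higher and 2 lower, with a median of 0.10, and the medians of single lines ran from 0.078 to 0.121. UHRF1, which guides maintenance methylation at replication forks, was at 92.7, 83.0, 101, 95.8 and 97.4 CPM in A and at 128, 120, 124, 127 and 122 CPM in B, without overlap (log2 0.40, SE 0.03, adjusted p = 2.63e-06). The checkpoint mediator CLSPN rose by 0.37 (SE 0.04, adjusted p = 9.98e-06), the replication initiation factor MCM10 by 0.31 (SE 0.04, adjusted p = 6.61e-05) and the repressor E2F8 by 0.28 (SE 0.04, adjusted p = 5.9e-05). With a correction for transcript length, 26 of the 40 were higher and 1 lower, against 1793 and 2057 of 9527 genes at 10 CPM or more. Among 40 genes of mitosis and G2/M, 7 were higher and 16 lower, with a median of -0.04. CKS2, a subunit of cyclin-dependent kinase complexes, fell from 177, 179, 173, 168 and 165 CPM to 119, 124, 128, 124 and 124 CPM (-0.48, SE 0.03, adjusted p = 2.5e-07), and the survivin gene BIRC5 fell from 231 ± 4.03 to 195 ± 6.61 CPM (-0.24, SE 0.03, adjusted p = 2.96e-05). MKI67, the proliferation antigen, was higher (0.23, SE 0.04, adjusted p = 0.000632) and so were the kinetochore gene CENPF (0.24, SE 0.04, adjusted p = 0.000482) and the kinesin KIF20B (0.25, SE 0.05, adjusted p = 0.00289). The longest annotated transcripts of the last 3 measure 12678, 10307 and 6419 bases, and those of CKS2 and BIRC5 613 and 2711. With the length correction, MKI67, CENPF and KIF20B stayed higher (0.12, 0.14 and 0.19), and CKS2 and BIRC5 stayed lower (-0.39 and -0.21). The mitosis list then gave 7 higher and 14 lower. A part of length in the split between its members was not tested. The cell cycle inhibitor CDKN1A, a p53 target, was at 215, 221, 228, 214 and 228 CPM in A and at 184, 179, 188, 174 and 184 CPM in B (-0.28, SE 0.03, adjusted p = 3.99e-06).

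Transcripts of the mitochondrial genome did not move as 1 unit. This small circular genome is transcribed into long precursors that are then cut. Among its genes are 13 protein-coding genes and 2 ribosomal RNA genes. Of the 13 protein-coding genes, 8 were higher, 1 lower and 4 not called, with a median of 0.24 that ranged from -0.017 to 0.446 across lines. Among all genes at 10 CPM or more, 21.1% were higher and 23.7% lower. MT-ND4, a subunit of complex I, was at 870, 1090, 773, 839 and 850 CPM in A and at 1104, 1241, 1278, 1207 and 1055 CPM in B (log2 0.42, SE 0.05, adjusted p = 6.57e-05), with an overlap through the NTC2 library of A. MT-ATP8 (0.41, SE 0.05, adjusted p = 3.59e-05) and MT-ND5 (0.38, SE 0.05, adjusted p = 4.03e-05) rose without overlap. MT-ND3, also a complex I subunit, fell from 533, 612, 430, 482 and 479 CPM to 318, 361, 358, 276 and 315 CPM without overlap (-0.64, SE 0.06, adjusted p = 3.87e-06). MT-CO3, its neighbour on the same strand, was not called (-0.05, SE 0.04, adjusted p = 0.366), but was called lower without sg1 (-0.11, adjusted p = 0.0213). The ribosomal RNAs fell as MT-ND3 did, MT-RNR2 from 3313, 3549, 2430, 2514 and 2926 CPM to 1920, 2363, 2208, 1715 and 1796 CPM (-0.55, SE 0.06, adjusted p = 2.28e-05) and MT-RNR1 by 0.41 (SE 0.04, adjusted p = 1.02e-05). The libraries were selected for poly(A) tails. MT-ATP8 overlaps MT-ATP6, MT-ND4L overlaps MT-ND4, and nuclear copies of mitochondrial sequence exist, so the division of reads among them is uncertain.

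**Figure D4:**
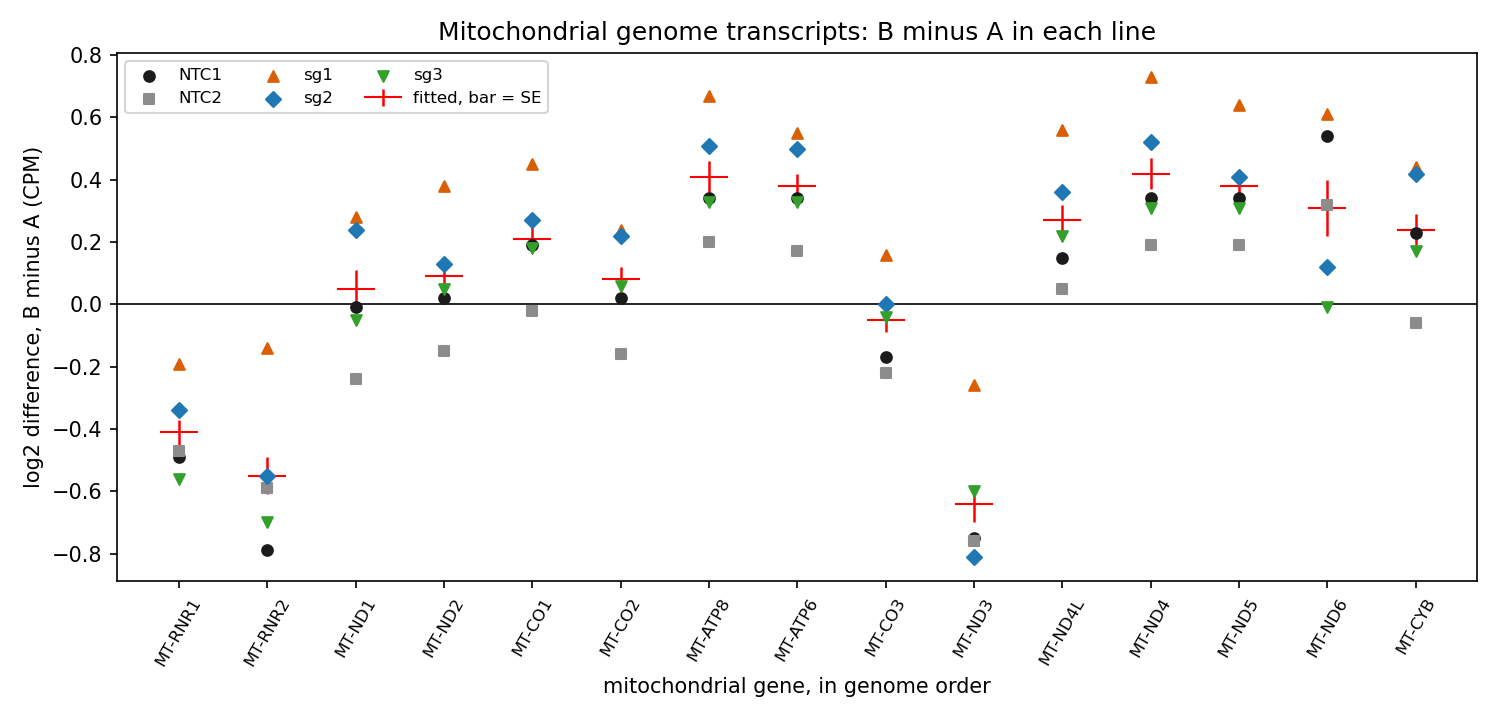
B-minus-A log2 differences of CPM (y axis) for the 15 mitochondrial transcripts in genome order (x axis), with 1 symbol per line and the fitted value with its SE in red. MT-RNR1, MT-RNR2 and MT-ND3 lie below 0 in all 5 lines, and sg1 has the highest value for all 13 protein-coding genes.

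Several lists of nuclear genes for translation and respiration held more lower than higher members, read against 21.1% higher and 23.7% lower among all genes at 10 CPM or more. Of 79 cytosolic ribosomal proteins, none was higher, 58 were lower and 21 were not called, with a median of -0.13 and medians of -0.215 to -0.054 across lines. RPL27, a protein of the large subunit, was at 698, 727, 671, 688 and 682 CPM in A and at 568, 561, 628, 591 and 570 CPM in B without overlap (-0.25, SE 0.03, adjusted p = 7.71e-05), and RPS15A, RPL39 and RPS21 fell by 0.28, 0.26 and 0.24. The abundant member RPS2 fell by 0.16 (SE 0.03, adjusted p = 0.000462), while RPL3 and RPLP1 were not called (0.01, SE 0.02, and 0.02, SE 0.04). Of 47 nuclear genes of oxidative phosphorylation, 4 were higher and 24 lower (median -0.08), with NDUFB1 (-0.23, SE 0.04, adjusted p = 0.000266) and SDHD (-0.19, SE 0.03, adjusted p = 7.03e-05) among the lower and NDUFS1 (0.17, SE 0.03, adjusted p = 0.000371) among the higher. Mitochondrial ribosomal proteins, a family taken by symbol, gave 1 higher and 38 lower of 78, with 39 not called. Of 33 translation factors, 4 were higher, 12 lower and 17 not called (median -0.045, or -0.025 without NTC1), and the initiation factors EIF3A (0.18, SE 0.03, adjusted p = 5.98e-04) and EIF4G1 (0.18, SE 0.03, adjusted p = 1.47e-04) were higher without overlap. Of 35 proteasome genes none was higher and 18 were lower (median -0.08), with PSMA6 at -0.22 (SE 0.03, adjusted p = 0.00013).

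Many members of these lists have short transcripts, and the B-minus-A difference varied with transcript length. Over 9517 genes at 10 CPM or more, Spearman's rho between the log2 difference and the longest annotated transcript was 0.428, a description over genes that share the same 10 libraries. In single lines it was 0.385 in NTC1, 0.505 in NTC2, 0.198 in sg1, 0.303 in sg2 and 0.387 in sg3. In the shortest of 5 equal groups of genes, 153 to 2184 bases, 42.5% were lower and 4.88% higher in B, and in the longest group, 6039 bases and more, 9.14% were lower and 45.3% higher. GC content gave a rho of 0.021, and the median length of a gene's transcripts, in place of the longest, gave 0.147. The longest transcript was taken as the measure after these values were seen, and which length matches the RNA made in these cells was not tested. When each library's log counts were adjusted for a smooth trend with length, which left a rho of 0.043 over the genes at 10 CPM or more, 2255 genes (14.6%) were higher and 2280 (14.7%) lower. The same adjustment for median transcript length gave 2405 and 2403. Of the 4968 genes called first, 3695 (74.4%) were called again in the same direction and none in the opposite one.

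**Figure D5:**
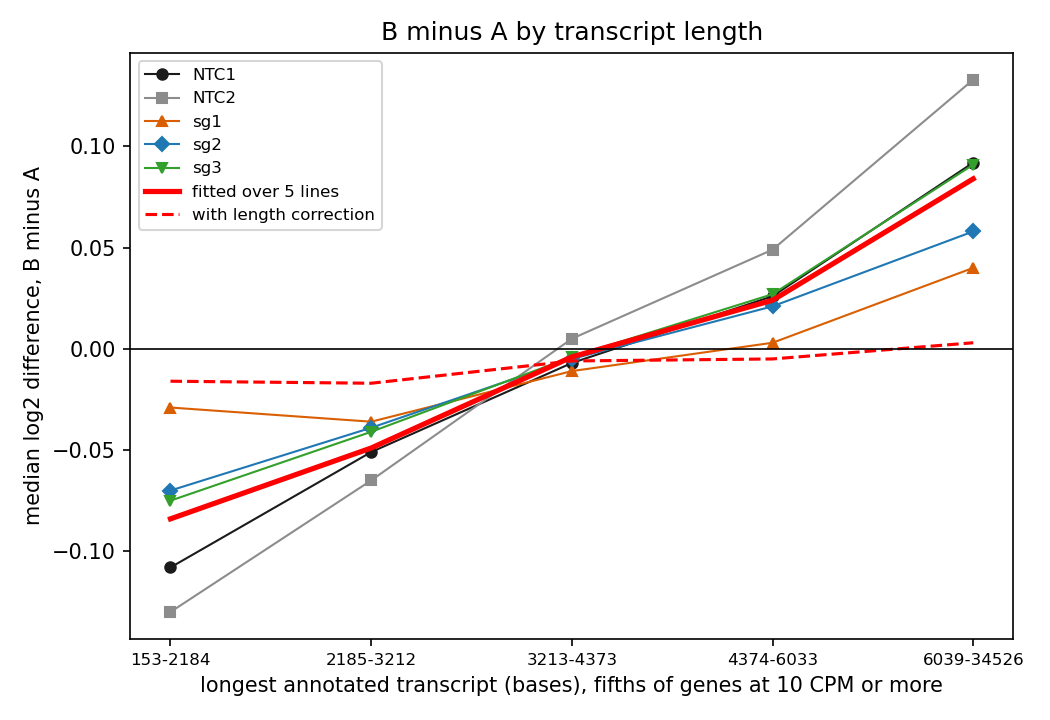
Median B-minus-A log2 difference (y axis) in 5 equal groups of genes by longest annotated transcript in bases (x axis), for each line, for the fit over 5 lines (thick) and after the length correction (dashed). The fitted median runs from -0.084 in the shortest to 0.084 in the longest group, with the steepest course in NTC2 and the flattest in sg1.

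The length correction changed the counts of several lists. Under it, 1793 of 9527 genes at 10 CPM or more were higher and 2057 lower. Over all genes tested, 14.6% were higher and 14.7% lower. Ribosomal proteins gave 43 lower and 2 higher, with a median of -0.085. Nuclear oxidative phosphorylation went to 5 higher and 13 lower of 47 with a median of -0.019, and the proteasome to 1 and 11 of 35. Mitochondrial ribosomal proteins went to 7 and 16 of 78, with the lower ones near the share of all genes at 10 CPM or more. Goblet products gave 10 higher and 2 lower with a median of 0.251, and the mitochondrial genome 11 higher and 1 lower. S100 proteins gave 1 higher and 8 lower with a median of -0.252. The part of transcript length in these differences was not tested beyond these values.

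Larger families were assembled by symbol after the values were seen. Over all genes tested, 15.9% were higher and 16.2% lower, or 14.6% and 14.7% with the length correction. Among genes at 10 CPM or more, 21.1% were higher and 23.7% lower. Of 34 KMT, SETD and KDM chromatin enzymes, 21 were higher and none lower (17 and 1 with the length correction). SETD1B, a histone H3 methyltransferase, was at 37.4, 36.0, 41.3, 39.7 and 38.5 CPM in A and at 53.9, 48.1, 51.7, 53.6 and 56.5 CPM in B (0.45, SE 0.04, adjusted p = 1.8e-06, and 0.37 with the length correction). Of 12 golgins, coiled-coil proteins of the Golgi, 8 were higher and 1 lower, with GOLGA3 at 0.43 (SE 0.04, adjusted p = 3.74e-06) and GOLGB1 at 0.41 (SE 0.05, adjusted p = 1.79e-05). Of 425 genes named ZNF, mostly zinc finger transcription factors, 100 were higher and 6 lower, with a median of 0.08. The length correction left 77 higher and 8 lower, with a median of 0.073. Solute carriers, which are membrane transporters, were higher for 15 and lower for 78 of 226, and the length correction left 13 and 77.

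Lists of RNA processing held more higher than lower members, read against the same shares of all genes at 10 CPM or more (21.1% and 23.7%). Of 42 SR proteins and splicing regulators 18 were higher and 6 lower (median 0.07). With the length correction 14 were higher and 7 lower (median 0.038), against 1793 and 2057 of 9527 genes at 10 CPM or more. After SRSF5 came CIRBP, the cold-inducible RNA-binding protein, which was 83.2 ± 0.639 CPM in A and 116 ± 3.27 CPM in B (0.48, SE 0.03, adjusted p = 1.29e-07), and HNRNPDL (0.34, SE 0.03, adjusted p = 3.56e-06). SRSF6 was not called (-0.06, SE 0.03, adjusted p = 0.0864, but 0.0333 without NTC2). Of 41 genes of RNA decay 18 were higher and 6 lower (median 0.08, or 0.034 with the length correction). The nonsense-mediated decay genes UPF1 (0.28, SE 0.03, adjusted p = 1.01e-05), UPF2 (0.24, SE 0.04, adjusted p = 0.000325) and UPF3B (0.37, SE 0.07, adjusted p = 0.00141) were all higher without overlap. Nucleolar genes of ribosome synthesis gave 13 higher, 4 lower and 18 not called of 35 (median 0.03; 19 members above 0 and 16 below), with nucleolin, NCL, at 1255 ± 56.0 and 1466 ± 34.9 CPM (0.23, SE 0.03, adjusted p = 7.97e-05). Of 13 nuclear-retained and long noncoding RNAs tested, 5 were higher, 1 lower and 7 not called (median 0.04). NEAT1 (0.39, SE 0.09, adjusted p = 0.00323, edgeR) was higher with overlapping groups, and MALAT1 (0.30, SE 0.06, adjusted p = 0.00104) without overlap. Their longest annotated transcripts measure 22743 and 8708 bases, and the length correction left 0.25 and 0.21. The lower one, UCA1, fell by 0.43 (SE 0.05, and -0.46 to -0.40 with a line left out).

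The heat shock and hypoxia lists held more lower than higher members, read against 23.7% lower and 21.1% higher among all genes at 10 CPM or more. Of 25 heat shock genes 12 were lower and 2 higher (median -0.07). HSPA8, the constitutive chaperone and one of the 10 most abundant genes, fell from 5257, 5249, 5038, 5155 and 5059 CPM to 4190, 4513, 4441, 4261 and 4249 CPM (-0.25, SE 0.02, adjusted p = 5.44e-06). HSPH1 (-0.37, SE 0.03, adjusted p = 5.24e-06), DNAJB1 (-0.25, SE 0.03, adjusted p = 1.26e-05) and CHORDC1 (-0.35, SE 0.03, adjusted p = 6.86e-06) fell without overlap, while HSP90AA1 was not called (-0.02, SE 0.03). HSPA1A and HSPA1B are near-identical copies whose reads cannot be divided with certainty. Of 39 genes of hypoxia and glycolysis 17 were lower and 5 higher (median -0.08). CA9, a carbonic anhydrase induced by low oxygen, fell from 27.6, 28.3, 33.7, 31.0 and 29.8 CPM to 19.7, 18.6, 22.3, 21.5 and 18.8 CPM (-0.58, SE 0.04, adjusted p = 4.6e-07). The glucose transporter SLC2A1 (-0.35, SE 0.03, adjusted p = 2.22e-06) and the lactate exporter SLC16A3 (-0.26, SE 0.04, adjusted p = 0.000114) fell as well. The angiogenic factor VEGFA moved little (-0.09, SE 0.03, adjusted p = 0.0335, and 0.0538 to 0.168 without NTC1, NTC2, sg2 or sg3).

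Other lists had members in both directions, to be read against 21.1% higher and 23.7% lower among all genes at 10 CPM or more. Of 35 endoplasmic reticulum genes 6 were higher and 14 lower, of 44 amino acid response genes 4 and 12, of 34 p53 targets 4 and 10, and of 24 TGF-beta and BMP genes 3 and 9. Among the last, PMEPA1 (-0.58, SE 0.06, adjusted p = 1.02e-05) and the BMP antagonist GREM1 (-0.37, SE 0.05, adjusted p = 0.000164) were lower. SMAD9, of the same list, rose without overlap (0.49, SE 0.06, and 0.45 to 0.56 with a line left out). Of 47 interferon-stimulated genes, 37 were not called; IFI27 fell by 0.57 (SE 0.07, adjusted p = 2.4e-05). Of 32 TNF and NF-kB targets 7 were higher and 8 lower, and of 31 genes of drug metabolism 9 and 5, shares near that background for the NF-kB targets. Of 30 genes of fatty acid synthesis and oxidation 7 were higher and 5 lower. CYP3A5, a drug-oxidizing cytochrome, fell from 3.98 ± 0.356 to 2.39 ± 0.195 CPM (-0.73, SE 0.10, adjusted p = 0.000133), and CYP1A1, a target of the aryl hydrocarbon receptor, rose with overlap (0.67, SE 0.17, adjusted p = 0.00789).

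The change was tested for dependence on the guides. RNASE1 (chr14:20801228-20803278, minus strand) was at 16.3 and 19.2 CPM in the A libraries of NTC1 and NTC2 and at 1.02 to 3.35 CPM in those of the guide lines, and at 23.8, 22.9 and 1.38 to 3.76 CPM in B, so the guide lines lay below the NTC lines in both letters. Its own B-minus-A change was 0.31 (SE 0.08, adjusted p = 0.00929), with -0.07 in sg3, and it was not called without NTC1 (0.20, adjusted p = 0.161). An interaction of letter with guide lines against NTC lines was called for 3 of 15462 genes (0.0194%; 916 had an unadjusted p under 0.05), for 7 without sg1 and for 5 without NTC2. LINC00261, a noncoding RNA, went from 0.356 and 0.142 CPM to 6.88 and 6.07 CPM in NTC1 and NTC2, and went from 1.26, 2.7 and 2.45 CPM to 3.58, 1.46 and 2.01 CPM in the guide lines (difference of the log2 changes -4.61, SE 0.61, adjusted p = 0.0294). AC234031.1 was lower in B in both NTC lines and higher in the 3 guide lines (2.89, SE 0.37, adjusted p = 0.0294). FAM156A did the opposite (-1.65, SE 0.24, adjusted p = 0.0484), and its near-identical copy FAM156B makes the division of its reads uncertain. AC234031.1 (chrX:52891306-52908560) lies beside FAM156A (chrX:52926402-52995472). From A to B, AC234031.1 went from 3.2 to 0.811 CPM in NTC1 and from 2.07 to 11.4 CPM in sg2. FAM156A went from 9.99 to 15.0 and from 10.9 to 3.76 CPM. Whether these 2 calls mirror 1 division of reads was not tested, so they cannot be counted as independent.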

How the data were processed

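Values are RSEM expected counts per gene, as deposited by the authors in a single table (58870 genes, 10 columns; 7.12% of values not whole). The submitters' processing notes list hg38, FastQC 0.11.2, TopHat2 2.0.8 and CASAVA 1.8.2 without saying what each did. Expected counts were rounded and fitted with edgeR 4.0.16 in R 4.3.3 (TMM factors, filterByExpr, glmQLFit and glmQLFTest, line as block, two-sided). The pairing comes from the labels, since the same line gave both libraries of a pair. P-values were adjusted by Benjamini-Hochberg across the 15462 tested genes. CPM uses TMM-scaled library sizes, and per-line differences used a prior count of 2. Gene types, positions and the longest transcript come from GENCODE 29, which matched 58552 identifiers. Scripts were tested on simulated data. Procedures that do not mark strand, as here per the labels' protocols, cannot divide reads of overlapping antisense genes, and RSEM shares reads between near-identical genes.

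The genes, lists and comparison were chosen with earlier results of these data known, and no list test was run. The rule for named genes took 12 protein-coding genes per direction (the leading genes: adjusted p under 0.05, at least 10 CPM, 1 direction in 5 lines, no overlap between letters, largest log2 change, from 1302 higher and 1351 lower genes that met it), up to 4 called members of each list at 1 CPM or more, interaction genes, fixed names and the 10 most abundant genes. All other named genes and the families by symbol were chosen after their values were seen. Alternatives were other scaling, filters, tools, no block, GC and length corrections, lines left out and each arm alone; the correction for the longest transcript was chosen after seeing the data. The 2 libraries of a line differed by 12.4 to 26.0 times the sampling variance. Some genes that met the rule are not reported here.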

Additional observations from a re-analysis of the deposited data

Results flagged for a closer look

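Of 75 sets of 5 line values screened (the 24 leading genes and the medians of gene lists among them), 4 had a value far from the other 4 lines; chance flags about 1 in 20 such sets. The B-minus-A log2 difference of UGT1A8 was 0.24 in sg1, against 0.55 to 0.63 in the other lines. The median of secreted mucus and goblet products was 0.11 in sg2, below the other lines. The median of small nucleolar RNA host transcripts was 0.13 in NTC1, above the other lines, and that of mitosis and G2/M was -0.01 in NTC2, the smallest decrease.

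For 3 genes the difference between letters differed between guide lines and NTC lines by the interaction test: AC234031.1 (2.89), LINC00261 (-4.61) and FAM156A (-1.65), as log2 differences with adjusted p of 0.0294, 0.0294 and 0.0484 (edgeR). AC234031.1 and FAM156A lie side by side, and whether their calls mirror 1 division of reads was not tested.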

How the results depend on the processing

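With line as a replicate block, 2456 genes were higher and 2512 lower in B, and without the block 2414 and 2467. Counts of changes of 1.5-fold or more moved with the settings: the 153 higher and 90 lower genes became 10 and 10 at 10 CPM or more and 61 and 41 with DESeq2, and 136 were lower with no filter. With guide lines only, 1344 were higher and 1345 lower, 68 and 56 by 1.5-fold; with NTC lines only, 1711 were higher and 1588 lower, 191 and 117 by 1.5-fold. These fits use 6 and 4 libraries. Leaving out 1 line gave 88 (without NTC1) to 171 (without sg1) genes higher by 1.5-fold. Interaction calls were 3, or 101 with no filter, and 3 to 7 with a line left out. Without sg1, 9 named genes lost the call, 7 gained it, and 3 list medians moved: MHC class I (-0.037), TNF and NF-kB targets (-0.003) and immediate early genes (-0.002). In NTC lines only, the sign turned for AC234031.1 (-1.196), FAM156A (0.552) and HSPA1A (0.021); the cause was not tested. Of 5472 values of 326 named genes under the alternatives, 5170 kept direction and side of the threshold, 230 lost the call, 69 gained it and 3 reversed; 185 of 263 called genes kept the call in every alternative. Low counts limit genes such as CLCA1 (0.19 CPM in A), and total RNA per cell was not measured.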
